A study of Homo sapiens with 7 samples.

Results

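The last step of the JMJD3c time course, from Day 3 to Day 4 of Dox, was examined for the genes that were still being upregulated, those that had levelled off and those that turned. The comparison used 2 of the 7 RNA-seq libraries of the series, and it took in 20187 of the 22670 rows listed per library, namely those on chromosomes, matched by identifier and locus. The other 2483 rows were listed at 0 in every library. JMJD3c-hESCs are SEES-3 human embryonic stem cells that constitutively express the reverse Tet-transactivator and carry an inducible piggyBac construct. The construct encodes HA-tagged JMJD3c, the catalytic part of the histone demethylase JMJD3 (KDM6B) with a nuclear localization signal, followed by IRES-βgeo, and stable clones had been taken by puromycin selection. The cells were collected before Dox (Day 0) and after 1, 2, 3 and 4 days in 1 µg/ml Dox. As a control, JMJD3c mut-hESCs are the same SEES-3 line with an inducible form that lacks catalytic activity through a point mutation, collected without Dox and at Day 4 of Dox. All cells were kept feeder-free in StemFit AK-03 medium on iMatrix-511, a medium for undifferentiated cells, and each condition had 1 library, so replicate error could not be measured and no p-values were calculated.

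H3K27me3 is a mark that Polycomb repressive complexes place on the promoters of developmental regulators in pluripotent cells, and JMJD3 is an enzyme that removes it. In the embryo, the primitive streak gives rise to mesoderm and definitive endoderm under NODAL, BMP and Wnt signals. T, MIXL1 and EOMES are early streak transcription factors, and SOX17, GATA4, GATA6, FOXA2 and CXCR4 mark the endoderm that follows.

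Expression was given as FPKM, the number of sequenced fragments per kilobase of transcript, scaled to the mapped fragments of the library, with the 95% interval that Cufflinks estimated within each library. A gene received a fold call when its FPKM changed by more than 2-fold between both days and exceeded 4 FPKM in the higher library. It received an interval call when its Cufflinks intervals of Day 3 and Day 4 did not overlap, whatever the size of the change. Genes without an interval call whose higher FPKM exceeded the lower by no more than 25% are called level, and the others undecided. Values of weakly expressed genes are multiples of what 1 read is worth, and taking the lowest step as 1 read gave an estimate of 3430000 reads behind Day 3 and 2430000 behind Day 4, in a range from 1770000 to 3660000 over the 7 libraries. For a transcript of the median length, 1 read was then worth 0.0794 FPKM at Day 3 and 0.112 FPKM at Day 4. Such intervals and read values describe counting within a single library, and differences between cultures are not part of them.

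Of the 10121 genes with more than 4 FPKM at Day 3 or Day 4, 203 (2.01%) were higher and 311 (3.07%) were lower at Day 4 by the fold call. By the interval call, 194 of the 15730 genes listed above 0 on either day were higher (1.23%) and 322 were lower (2.05%). A row listed at 0 could have an interval from 0 to 0, so a few reads on the other day could give the call. At 0 on Day 3 were 10 of the 194, and at 0 on Day 4 were 36 of the 322. With the upper bound of rows at 0 raised to the value of 3 reads, 186 genes were higher and 293 lower. With more than 4 FPKM required in the higher library, 167 genes (1.65% of 10121) and 267 genes (2.64%) had the interval call. The balance between both directions depended on the scale. With Day 4 multiplied by 1.03, so that the median ratio over genes with at least 10 FPKM on both days became 1, 241 genes were higher and 248 lower by the interval call. For comparison, the fold call was met upward by 2.08% and downward by 2.68% of genes from Day 1 to Day 2, and by 1.95% and 1.58% from Day 2 to Day 3. In the mutant line, with Dox relative to no Dox, it was met by 122 genes upward and 149 downward of 9736, or 2.78% in either direction. The median absolute log2 ratio of genes with at least 10 FPKM in both libraries was 0.18 in the last step, 0.15 from Day 2 to Day 3 and 0.15 in the mutant line. The 2 untreated libraries differed more. Relative to Day 0 of JMJD3c, the untreated mutant line had 279 genes higher and 705 lower of 10051 by the fold call, with a median absolute log2 ratio of 0.29. Values set beside the mutant line therefore include this difference.

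Both calls together were met by 46 genes that rose and 60 that fell. Day 4 was the highest day of the time course for 39 of the 46, and the lowest for 53 of the 60. Because the calls choose genes by a Day 4 value far from that of Day 3, these counts are in part set by the selection. For 13 of those that rose and 11 of those that fell, the Day 4 value was within 1.5-fold of Day 0.

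**Figure D1:**
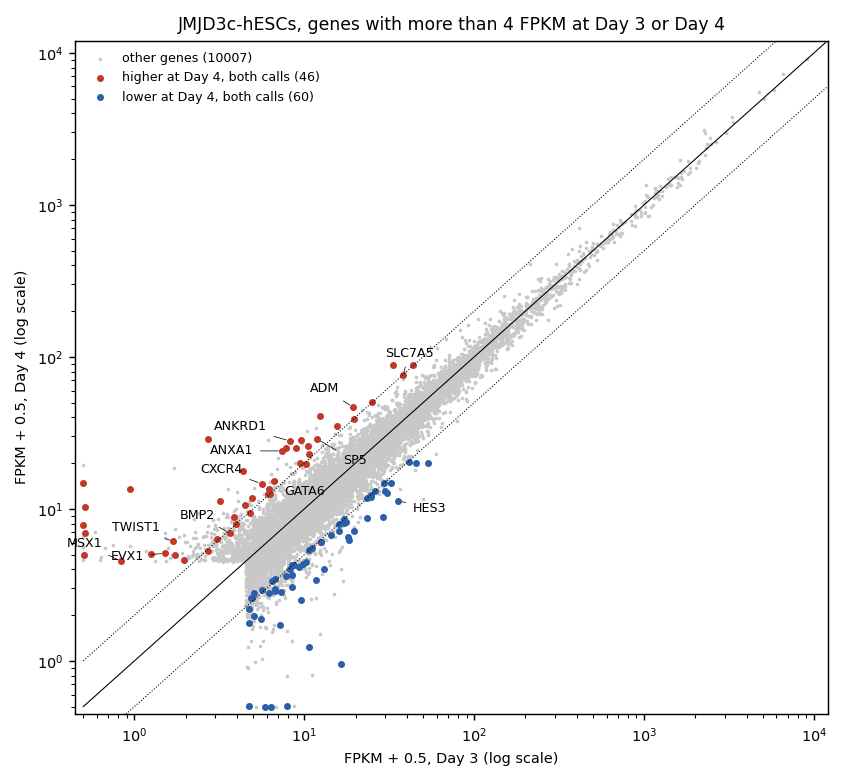
FPKM + 0.5 of each gene at Day 3 (x axis) and Day 4 (y axis), on log scales, for genes with more than 4 FPKM on either day. The solid line marks equal values and the dotted lines a 2-fold difference; the 46 red genes were higher and the 60 blue genes lower at Day 4 by both calls.

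The induced gene was examined first. The KDM6B entry, which also collects reads from the JMJD3c transgene, was listed at 3.45 FPKM on Day 0, 158 on Day 1, 212 on Day 2, 248 on Day 3 and 282 on Day 4. The last step was a rise of 1.14-fold (95% interval of the ratio, 1.08 to 1.20), with an interval call. In the mutant line the entry stood at 2.40 FPKM without Dox and 454 with Dox, so induction was present in every Dox-treated library and was higher in the mutant line than on any day of JMJD3c.

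The 4 marker genes of mesendoderm and endoderm did not move alike. SOX17, a transcription factor that defines endoderm (hg19, chromosome 8, 55370495 to 55373448), had 0 FPKM on Days 0 and 1, 3.05 on Day 2, 10.9 on Day 3 (Cufflinks interval, 8.19 to 13.5) and 20.3 on Day 4 (15.8 to 24.9), and at 0 in both mutant libraries. It rose by 1.87-fold in the last step (1.34 to 2.61), with an interval call. BMP2, a BMP ligand (chromosome 20, 6748311 to 6760927), was listed at 0.992, 1.10 and 1.46 FPKM on Days 0 to 2, then at 3.16 (2.18 to 4.20) and 6.40 (4.67 to 8.09), a rise of 2.02-fold that met both calls. In the mutant line BMP2 stood at 0.802 and 0.642 FPKM. GATA4, a zinc-finger factor of endoderm and heart (chromosome 8, 11534468 to 11617511), went from 6.11 FPKM (2.99 to 9.39) to 11.0 (6.69 to 15.3). The ratio of 1.80 had an interval from 0.932 to 3.46, and GATA4 met neither call. T, the brachyury factor of the streak (chromosome 6, 166571144 to 166582188), was listed at 0.804, 2.68, 10.2 and 22.4 FPKM on Days 0 to 3 and at 23.6 on Day 4. Its Day 3 value was 2.20 times that of Day 2, whereas Day 4 was 1.05 times Day 3 (0.788 to 1.41), so T was level in the last step. All 4 markers stood above both mutant libraries at Day 4, so the marker genes of the label were present. In bulk RNA, more cells expressing a gene and more RNA per cell cannot be told apart.

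Endoderm genes were mostly higher at Day 4. Of 29 genes of the definitive endoderm list, 28 exceeded 1 FPKM on either day, 23 had a higher FPKM at Day 4 and 6 a lower FPKM. The interval call was met upward by 6 (SOX17, GATA6, EOMES, CER1, CXCR4 and LHX1) and downward by 0 members, and the fold call by 4 (GATA6, CXCR4, PRDM1 and CD177) and 0. Of all genes, 6985 had a higher and 8745 a lower FPKM at Day 4. Their shares were 1.23% upward and 2.05% downward by the interval call (1.65% and 2.64% with more than 4 FPKM). By the fold call the shares were 2.01% and 3.07%. The median difference in log2(FPKM + 1) of the endoderm list was 0.40 (0.21 with a pseudocount of 4), beside -0.05 over the 12816 genes with more than 1 FPKM on either day. CXCR4, a chemokine receptor used to sort definitive endoderm, was listed at 0, 1.27, 1.47, 5.11 and 14.1 FPKM from Day 0 to Day 4, a last step of 2.77-fold (1.70 to 4.50). GATA6, a partner of GATA4 in endoderm, was listed at 0 on Days 0 and 1 and then at 2.52, 6.11 and 14.8 FPKM, a last step of 2.43-fold (1.71 to 3.44). Both genes thus had most of their Day 4 level from the last day. CER1, a secreted inhibitor of NODAL, BMP and Wnt, reached 84.1 FPKM at Day 3 and 134 at Day 4 (1.59-fold). The Day 4 value of CER1 exceeds the upper end of the interval deposited for it (101 to 132), so no interval of its ratio was calculated. CD177, a surface protein of endoderm progenitors and neutrophils, was listed at 1.02 and 5.91 FPKM, and PRDM1, a transcriptional repressor, at 1.11 and 4.29. Their Cufflinks intervals overlapped, as did those of FOXA2 (20.4 and 27.2 FPKM) and GSC (6.05 and 10.5), which were picked after their values were seen. OTX2 (43.0 and 47.7 FPKM), NODAL (60.0 and 65.3) and EPCAM (137 and 142) were level.

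The streak and mesoderm list was mixed. Of its 42 members, 26 exceeded 1 FPKM on either day and 9 were listed at 0 on both days. A higher FPKM at Day 4 was listed for 23 members and a lower one for 10. The interval call was met upward by 6 (MIXL1, EOMES, EVX1, MSX1, TBX3 and LHX1) and downward by TBX6, beside 1.23% upward and 2.05% downward over all genes. The median difference was 0.09 over all members and 0.27 over the 26 with more than 1 FPKM. MIXL1 (4.43, 4.79, 15.2, 23.5 and 41.0 FPKM from Day 0 to Day 4) and EOMES (0, 1.39, 10.9, 22.0 and 38.2 FPKM) both rose by 1.74-fold in the last step, with intervals from 1.38 to 2.20 and from 1.41 to 2.13. T, in contrast, was level, and the difference between these genes was not tested. EVX1 and MSX1 are homeobox genes of the posterior streak and its mesoderm. EVX1 was listed at 0, 0, 0.217 and 1.01 FPKM on Days 0 to 3 and at 4.61 on Day 4. MSX1 stood at 0.335 FPKM, about 2 reads, on Day 3 and at 4.02 FPKM on Day 4, a ratio of 12.0 with an interval from 3.59 to 40.1. MSX2, a related gene, was listed at 1.35, 1.10, 0.457, 1.40 and 4.63 FPKM from Day 0 to Day 4, with overlapping intervals in the last step. TBX6, a factor of presomitic mesoderm, was listed at 1.46 FPKM (0.364 to 2.55) on Day 3 and at 0 on Day 4. On Day 4, 3 reads would have given 0.629 FPKM, which lies within the Day 3 interval, so the size of the fall is not known. With that value as the upper bound at Day 4, TBX6 would have no interval call. APLN, a ligand of the apelin receptor, was lower by the fold call (7.74 to 3.51 FPKM), and KDR, a receptor of early vascular mesoderm, went from 5.37 to 3.79 FPKM without a call.

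**Figure D2:**
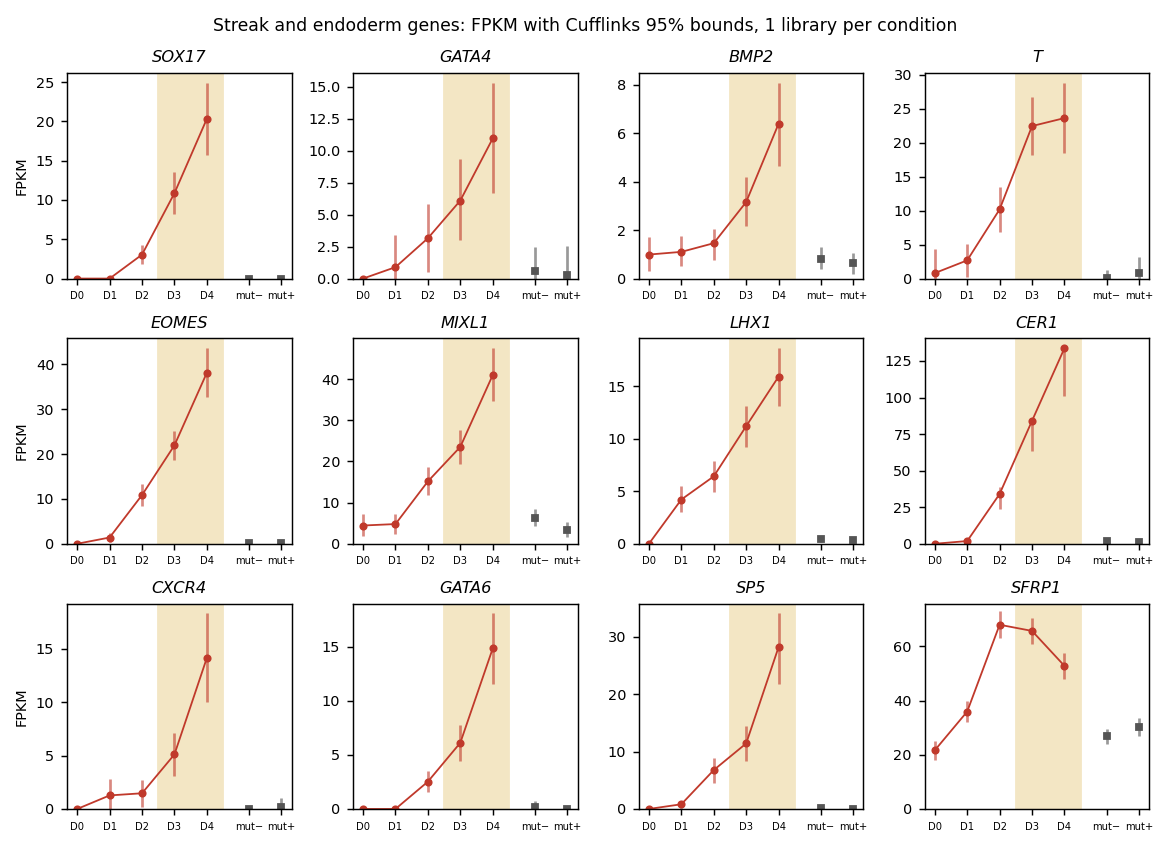
FPKM of 12 streak and endoderm genes in the 7 libraries (JMJD3c on Days 0 to 4 as red circles, mutant line without and with Dox as grey squares); vertical lines are the Cufflinks 95% intervals within 1 library and the shaded band marks Days 3 and 4. SOX17, CXCR4, GATA6, SP5 and BMP2 had higher values on Day 4 than on Day 3 with intervals apart, T was level (22.4 and 23.6 FPKM) and SFRP1 turned down (65.7 and 52.8 FPKM).

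Among the signalling genes, calls were few and concerned single members. Over all genes the interval call was met by 1.23% upward and 2.05% downward, and the fold call by 2.01% and 3.07%. Of the 18 BMP ligands and GDFs, 6 exceeded 1 FPKM on either day and BMP2 alone had a call. BMP4 was level (6.76 and 6.75 FPKM), but the interval of its ratio, from 0.389 to 2.56, was wide. BMP7 was undecided (18.7 and 24.1). Among 12 BMP receptors and SMADs, ACVR2B, a receptor of activin, NODAL and BMP, was lower by the interval call (16.0 to 13.1 FPKM). Of 17 BMP antagonists, CER1 rose and CHRDL1 was lower by the fold call (5.59 to 2.60 FPKM), and CHRD (11.9 and 17.3) and FST (6.83 and 12.6) had higher values with overlapping intervals. Of 16 BMP response genes, MSX1 and TBX3 (3.09 to 5.71 FPKM) rose by the interval call, and MSX2 by the fold call. The direct targets ID1 (57.2 and 58.0 FPKM) and ID3 (156 and 144) were level. In the NODAL list of 26 genes, TGFB1, a ligand of the same superfamily, rose by 1.93-fold (13.0 to 25.1 FPKM), and GDF1 (3.43 to 1.02) and ACVR2B fell. TGFB1 and GDF1 overlap other expressed genes, and the strand setting of the counting is not given in the sources used here. The NODAL inhibitor LEFTY1 was level (59.2 and 70.0 FPKM). Of 19 Wnt ligands, only 3 exceeded 1 FPKM on either day and 6 were listed at 0 on both days, so most could hardly receive a call. None had an interval call, and WNT5B was lower by the fold call (4.25 to 1.66 FPKM). WNT3, the ligand of the streak, was level (9.58 and 10.9 FPKM). Of 26 Wnt receptors and carriers, only WLS, the carrier that brings Wnt proteins to the cell surface, had a call (3.52 to 7.82 FPKM, fold call). Of 28 Wnt target and feedback genes, SP5 and FRZB rose by the interval call and SFRP1 fell. FRZB, a secreted Wnt antagonist, went from 0.687 to 2.91 FPKM. Of 24 FGF ligands and receptors, FGF11 was lower by the fold call (4.31 to 1.65 FPKM).

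SP5 is a direct target of β-catenin with TCF/LEF factors, and it was among the genes already upregulated by Day 2 that rose again by the interval call. It was listed at 0, 0.819, 6.78, 11.4 and 28.2 FPKM from Day 0 to Day 4, a last step of 2.47-fold (1.75 to 3.49), and at 0.149 and 0 in the mutant line. To show the sequence upstream of the streak genes that kept rising, the 250 bases before the start of SP5 (chr2:170715087-170715336, plus strand) and of MIXL1 (chr1:226223414-226223663, plus strand) are given from RefSeq on GRCh38.p14, a later build than that of the expression data. Capitals mark the letters CTTTGA, a core of the TCF/LEF motif, or their reverse complement TCAAAG.
SP5: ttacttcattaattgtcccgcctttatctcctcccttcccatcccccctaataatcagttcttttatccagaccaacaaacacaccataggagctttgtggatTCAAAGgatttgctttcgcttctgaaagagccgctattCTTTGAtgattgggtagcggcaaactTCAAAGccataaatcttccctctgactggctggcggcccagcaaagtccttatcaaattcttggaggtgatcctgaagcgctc
MIXL1: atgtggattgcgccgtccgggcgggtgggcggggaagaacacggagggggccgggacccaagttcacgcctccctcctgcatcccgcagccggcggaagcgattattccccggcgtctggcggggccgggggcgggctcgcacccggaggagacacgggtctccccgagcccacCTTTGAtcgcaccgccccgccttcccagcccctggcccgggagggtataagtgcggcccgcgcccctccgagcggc
SP5 holds 3 matches, from 83 to 147 bases before the start, and MIXL1 holds 1, at 76 bases. A match on either strand is present in 11.2% of 35116 promoter windows of this length and in at least 1 window of 13.5% of 27305 genes, and of the 15 genes described below as still rising, 11 had a promoter in the table and 3 held it (SP5, MIXL1 and CSRP1). A match of letters is a description and not a binding site.

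The genes that had already moved by Day 2 were followed through the last step. Day 2 and Day 0 share no library with the comparison of Day 4 with Day 3. Of 10212 genes with more than 4 FPKM on Day 0 or Day 2, 398 (3.90%) had risen and 433 (4.24%) had fallen at Day 2 by the fold call. Of the 398 risen genes, 16 (4.02%) rose again in the last step by the interval call, 3 (0.754%) fell, 157 were level, 1 was listed at 0 on both days and 221 were undecided. Of the 433 fallen genes, 10 (2.31%) fell again, 2 (0.462%) rose, 127 were level, 3 were listed at 0 and 291 were undecided. Over all genes listed above 0 the interval call was met by 1.23% upward and 2.05% downward, and with the minimum of 4 FPKM by 1.65% and 2.64%. The share of level genes over all genes was not calculated, so the counts of level genes cannot be compared with genes at large. A level gene can also have a wide interval of its ratio. By the fold call, 22 of the risen genes (5.53%) were higher and 23 (5.78%) lower in the last step, and 21 of the fallen genes (4.85%) were higher and 41 (9.47%) lower, beside 2.01% and 3.07% over all genes above 4 FPKM. The excess of higher over lower genes among the risen was therefore present by the interval call and not by the fold call. It was also absent by the interval call when the untreated mutant line replaced Day 0 as the reference, with 18 genes higher and 19 lower. The median difference in log2(FPKM + 1) was 0.07 for the risen and -0.17 for the fallen genes.

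**Figure D3:**
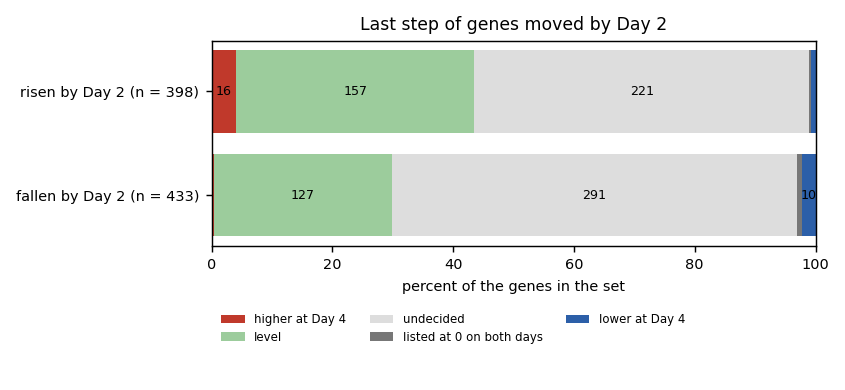
Share of the 398 genes risen and the 433 genes fallen by Day 2 (fold call against Day 0) that were higher, level, undecided, listed at 0 or lower in the step from Day 3 to Day 4. Numbers in the bars are genes, with 157 and 127 level and 16 and 10 still moving in the same direction. The share of level genes over all genes was not calculated.

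The 16 genes that had risen and rose again were CTD-3074O7.11, SP5, BMI1, MIXL1, EOMES, TIMP1, VIM, CER1, HAS2, FKBP14, LHX1, GAL, CSRP1, CYP26A1, GPC4 and KDM6B. Of these, 14 had also risen when Day 2 was set against the mutant line without Dox, the exceptions being FKBP14 and CTD-3074O7.11, a clone-based entry under 1 read on Days 0 and 3. They included the transcription factors SP5, MIXL1, EOMES and LHX1. LHX1, a factor of the organizer, was listed at 0, 4.21, 6.42, 11.2 and 15.9 FPKM, a last step of 1.42-fold (1.11 to 1.81). CYP26A1, which degrades retinoic acid, stood at 2.63, 10.5, 29.0, 35.5 and 48.8 FPKM (1.37-fold, 1.13 to 1.66). Enzymes and proteins of the cell surface and matrix were also among them. HAS2, the hyaluronan synthase, was listed at 15.6 and 24.9 FPKM on the last days, and TIMP1, an inhibitor of metalloproteinases, at 34.2 and 59.0. GPC4, a glypican, stood at 139 and 171 FPKM, and it was also higher in the mutant line with Dox (80.6 FPKM) than without (50.4). GAL, the neuropeptide galanin, was listed at 236 and 325 FPKM, both outside their own Cufflinks intervals. BMI1, a Polycomb subunit, was listed at 4.65, 8.13, 15.7, 15.1 and 34.6 FPKM, a last step of 2.29-fold (1.51 to 3.48). BMI1 overlaps the read-through entry COMMD3-BMI1, and reads could be split between both.

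The 3 risen genes that turned down were SFRP1, STON1 and the read-through entry TGIF2-C20orf24. SFRP1, a secreted Wnt antagonist, was listed at 21.7, 36.0, 68.0, 65.7 and 52.8 FPKM from Day 0 to Day 4 and fell in the last step to 0.804 of its Day 3 value (0.715 to 0.904). STON1, an adaptor of endocytosis, went from 3.45 to 1.70 FPKM. With the untreated mutant line as the reference, 595 genes had risen by Day 2. In the last step, 19 of them rather than 3 fell and 18 rather than 16 rose. Level genes among the risen included T, OTX2, LEFTY1, ID3, VANGL1 (13.1 and 14.1 FPKM), a planar polarity protein, and SHISA2 (10.4 and 8.34), an inhibitor of Wnt and FGF signalling. The last pair was picked after the values were seen.

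The 10 fallen genes that fell again were UTF1, INA, DND1, PALM, RAB3D, TUBB4A, GPR63, PDZD4, HIST2H2AC and RP11-298I3.5. TUBB4A and HIST2H2AC were listed at 0 on Day 4, and with the value of 3 reads as upper bound neither would have the call. UTF1, a chromatin factor of pluripotent cells, was listed at 125, 83.7, 50.7, 39.0 and 21.5 FPKM, a last step to 0.552 of Day 3 (0.385 to 0.790), and at 72.9 and 55.2 FPKM in the mutant line. INA, a neuronal intermediate filament, was listed at 23.0, 20.2, 10.5, 6.24 and 2.98 FPKM, whereas the mutant line held 23.8 and 19.0. Against the untreated mutant line, 198 genes had fallen by Day 2 and only 2 of them fell again, namely INA and RP11-298I3.5. For the others of the 10, including UTF1, the fall by Day 2 thus depended on which untreated library was the reference. The 2 fallen genes that turned up were SLC7A5, described below, and PIGN, which was listed at 31.0, 13.8, 13.6, 7.26 and 24.5 FPKM.

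Pluripotency genes were mostly lower at Day 4. Of 37 measured members, 36 exceeded 1 FPKM, 26 had a lower and 10 a higher FPKM at Day 4. The interval call was met downward by 7 and upward by 0, the fold call downward by DPPA2 (6.15 to 2.78 FPKM), and the median difference was -0.18. Over all genes, 2.05% were lower by the interval call, 2.64% with the minimum of 4 FPKM, and 3.07% by the fold call, near the share that 1 of 37 makes. The interval calls were in UTF1, USP44 (28.9 to 18.3 FPKM), TET1 (8.19 to 5.83), DNMT3B (249 to 191), PODXL (169 to 136), SOX2 (80.9 to 65.9) and POU5F1 (720 to 619), the last pair named after their values were seen. POU5F1, encoding OCT4, was listed at 841, 765, 684, 720 and 619 FPKM over the 5 days, and at 716 and 629 in the mutant line, so its Day 4 level was close to that of the mutant line with Dox. DNMT3B, the de novo DNA methyltransferase, was listed at 404, 280, 267, 249 and 191 FPKM, below 369 and 308 in the mutant line. NANOG (95.3 and 92.9 FPKM), LIN28A (435 and 442) and L1TD1 (204 and 215) were level. HES3, a repressor of the Hairy and Enhancer of split family, had one of the 10 largest falls among genes with both calls, from 70.5, 46.3, 51.5 and 35.3 FPKM on Days 0 to 3 to 10.8 on Day 4, a ratio of 0.306 (0.179 to 0.522). In the mutant line HES3 stood at 39.8 and 35.9 FPKM.

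The Notch list of 21 genes had 17 members with a lower and 3 with a higher FPKM at Day 4, and a median difference of -0.32, which was -0.15 with a pseudocount of 4. Of all genes, 8745 were listed lower and 6985 higher. The shares of all genes that were lower were 2.05% by the interval call and 3.07% by the fold call. NOTCH2, a receptor, fell from 9.38 to 7.20 FPKM and NRARP, a feedback inhibitor of Notch, from 16.2 to 8.99 FPKM by the interval call, and HES4 was lower by the fold call (4.12 to 1.96). NOTCH1 (11.2 and 10.8 FPKM) and HES1 (19.6 and 17.9) were level. Of 31 neuroectoderm genes, 17 exceeded 1 FPKM, ZIC2 (69.5 to 53.1 FPKM) and ZIC5 (12.0 to 5.55) fell by the interval call, MAP2 (5.31 to 2.22) was lower by the fold call, and PAX6 was higher by it (2.72 to 5.91, interval of the ratio 0.370 to 12.8). Genes that fell had a higher GC content. The median GC content of the transcript was 54.8% for the 60 genes that fell by both calls, 49.4% for the 46 that rose and 47.7% for all genes above 4 FPKM, and the median log2 ratio of genes with at least 10 FPKM went from -0.01 in the lowest to -0.12 in the highest of 10 classes of GC content. The part of GC content in these falls was not tested gene by gene, and a correction in 20 GC bins left 224 genes higher and 269 lower by the fold call. That correction also takes out the shift in scale between both days. Rescaling Day 4 to a median ratio of 1, without GC content, gave 220 higher and 288 lower.

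In the list of epithelial-mesenchymal transition, of 25 genes, TWIST1, VIM and FN1 rose and CDH1, CLDN7 and ITGB1 fell by the interval call, and the median difference was 0.08. The shares of that call over all genes were 1.23% upward and 2.05% downward. TWIST1, a factor that represses epithelial genes, was listed at 0, 0.256, 0.636 and 1.19 FPKM on Days 0 to 3 and 5.61 on Day 4, and at 0 in both mutant libraries, a last step of 4.71-fold (2.16 to 10.3). VIM, the intermediate filament vimentin, was listed at 46.9, 108, 211, 413 and 704 FPKM, a last step of 1.70-fold (1.59 to 1.83). VIM was also higher in the mutant line with Dox (138 FPKM) than without (44.1). FN1, fibronectin, was listed at 44.4, 36.2, 40.5, 67.9 and 130 FPKM, and thus started between Day 2 and Day 3. CDH1, E-cadherin, stood between 85.2 and 95.4 FPKM on Days 0 to 3 and at 75.8 on Day 4 (0.841, 0.759 to 0.933), between 68.8 and 72.4 in the mutant line. Of 33 genes of extracellular matrix and integrins, FN1 rose and LAMC1 (44.7 to 33.9 FPKM) and ITGB1 (157 to 114) fell, so that the matrix list as a whole did not rise (median difference -0.04).

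The 10 largest rises among the nameable genes with both calls were GLIPR1L1, UPK3BL, MSX1, ANKRD1, TXNDC15, FAM89A, SCHIP1, ANXA1, PIGN and TWIST1. ANKRD1, a nuclear and sarcomeric ankyrin repeat protein and a known target of YAP with TEAD factors, was listed at 0 on Days 0, 1 and 2, at 7.69 FPKM on Day 3 and at 27.5 on Day 4, and at 0 in both mutant libraries. The last step was 3.58-fold (2.48 to 5.16). ANXA1, a phospholipid-binding annexin, was listed at 6.59, 6.60, 5.94 and 6.89 FPKM on Days 0 to 3 and at 23.6 on Day 4, so its rise was confined to the last step among the 5 days. FAM89A went from 2.70 to 10.8 FPKM. GLIPR1L1 was listed at 0 on all earlier days and at 14.4 FPKM (3.36 to 25.8) on Day 4. That Day 4 value was 16.0 times the value of 3 reads at Day 3, but GLIPR1L1 overlaps CAPS2. UPK3BL and SCHIP1 also overlap other entries, and UPK3BL was under 1 read on Day 3. TXNDC15 (31.2, 21.4, 20.2, 11.8 and 40.3 FPKM), like PIGN, had its lowest value on Day 3 and returned to near its Day 0 value. From the remaining genes with both calls, several further genes of this kind were picked after their values were seen. TNC, the matrix protein tenascin C, was listed at 0.205, 0.873, 2.87, 8.43 and 24.6 FPKM (2.91-fold, 2.25 to 3.77). CYR61, a matricellular protein and a YAP target, stood between 12.3 and 19.1 FPKM on Days 0 to 3 and at 38.5 on Day 4. FLNC, an actin cross-linker, was listed at 10.1 and 22.4 FPKM on the last days. The mutant line with Dox held 0.569 FPKM of TNC, 16.0 of CYR61 and 10.3 of FLNC, below the Day 4 value in each case. FLNC was also higher in the mutant line with Dox (interval, 9.06 to 11.6) than without (5.53 FPKM, 4.70 to 6.38).

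Because ANKRD1 was absent until Day 3, its upstream sequence is shown, as 250 bases from RefSeq on GRCh38.p14 (chr10:90921088-90921337, minus strand, written in the direction of transcription), with capitals at GGAATG, the core of the TEAD motif.
ANKRD1: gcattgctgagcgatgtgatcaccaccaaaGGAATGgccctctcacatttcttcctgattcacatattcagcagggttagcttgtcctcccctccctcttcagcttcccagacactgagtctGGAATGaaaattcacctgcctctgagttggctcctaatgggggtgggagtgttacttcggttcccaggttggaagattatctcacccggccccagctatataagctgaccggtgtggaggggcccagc
The window holds 2 matches, at 220 and 128 bases before the start. GGAATG or its reverse complement is present in 11.9% of the 35116 windows and for 14.3% of the 27305 genes, and in 4 of the 8 genes with a promoter in the table among the 10 largest rises (PIGN, SCHIP1, TXNDC15 and ANKRD1).

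**Figure D4:**
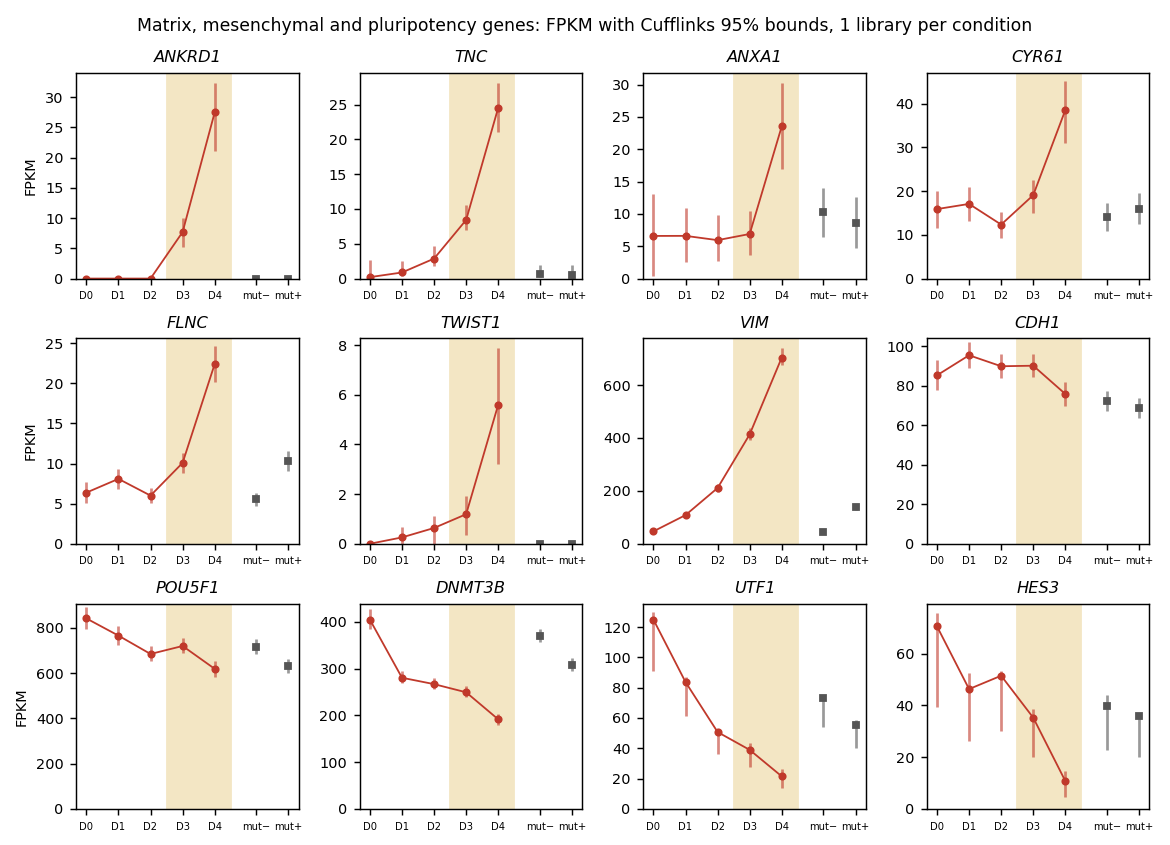
FPKM of 12 matrix, mesenchymal and pluripotency genes in the 7 libraries, drawn as in the plot of streak and endoderm genes, with Cufflinks 95% intervals as vertical lines and Days 3 and 4 shaded. ANKRD1, TNC, ANXA1, CYR61, FLNC and TWIST1 had their highest value on Day 4, whereas DNMT3B, UTF1 and HES3 had their lowest.

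The 10 largest falls with both calls were in HIST2H2AC, PPP1R1B, AP3S2, LIN7A, HES3, PYCARD, LTBP4, STRADB, ARHGAP8 and GFER. LTBP4, which binds latent TGFβ in the matrix, was listed at 18.7, 24.5, 17.9, 17.8 and 5.74 FPKM (0.323, 0.152 to 0.685), and at 8.37 and 7.59 in the mutant line. PYCARD, an inflammasome adaptor, went from 12.6 to 3.55 FPKM and GFER, a sulfhydryl oxidase of mitochondria, from 52.6 to 19.6. AP3S2, LIN7A, STRADB and ARHGAP8 overlap other expressed entries. HIST2H2AC, a histone gene, was listed at 5.37 FPKM (0.665 to 9.97), about 5 reads, on Day 3 and at 0 on Day 4. On Day 4, 3 reads would have given 4.18 FPKM, which lies within the Day 3 interval. The size of its fall is therefore not known, and its place among the largest falls rests on few reads.

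Single members of the early response and stress lists were higher at Day 4. Over all genes the interval call was met by 1.23% upward and 2.05% downward, and the fold call by 2.01% and 3.07%. Of 19 ERK feedback genes, FLRT3 (2.55 to 5.79 FPKM) and PHLDA1 (14.8 to 20.5) rose by the interval call, FOS (6.78 to 13.7) and FOSL1 (2.17 to 6.54) were higher by the fold call, and DUSP6, the ERK phosphatase, fell from 117 to 87.3 FPKM. Of 21 genes of the ATF4 stress response, SLC7A5, DDIT3, CHAC1 and ATF5 were higher by the fold call, SLC7A5, HSPA5 and ULBP1 by the interval call, and PHGDH (216 to 165 FPKM) fell, with a median difference of 0.21. ULBP1 was listed at 0 on Day 3 and at 0.698 FPKM, about 5 reads, on Day 4. With the value of 3 reads as the Day 3 bound, ULBP1 would lose the call. SLC7A5, a transporter of large neutral amino acids, was listed at 78.3, 49.3, 33.9, 37.6 and 75.5 FPKM, so the last step of 2.01-fold (1.77 to 2.28) returned it to the level of Day 0. DDIT3, encoding CHOP, went from 1.73 to 8.11 FPKM and CHAC1, which degrades glutathione, from 3.57 to 10.7, while ATF4 itself was level (265 and 258 FPKM). Of 25 genes of glycolysis and hypoxia, 6 were higher and 2 lower by the interval call. Among those that rose, ADM, the peptide adrenomedullin (18.8 to 46.3 FPKM), and EGLN3, a prolyl hydroxylase (5.79 to 12.0), met both calls. The glucose transporters SLC2A1 (50.7 to 72.5 FPKM) and SLC2A3 (203 to 249) rose, and HK1 (65.0 to 52.2) and PFKL (55.7 to 44.5) fell by the interval call. PGK1 (253 and 252 FPKM) and LDHA (242 and 238), which had fallen by Day 2, were level and were picked after their values were seen. The median difference of the list was -0.0018, and 0.04 with Day 4 rescaled to a median ratio of 1.

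**Figure D5:**
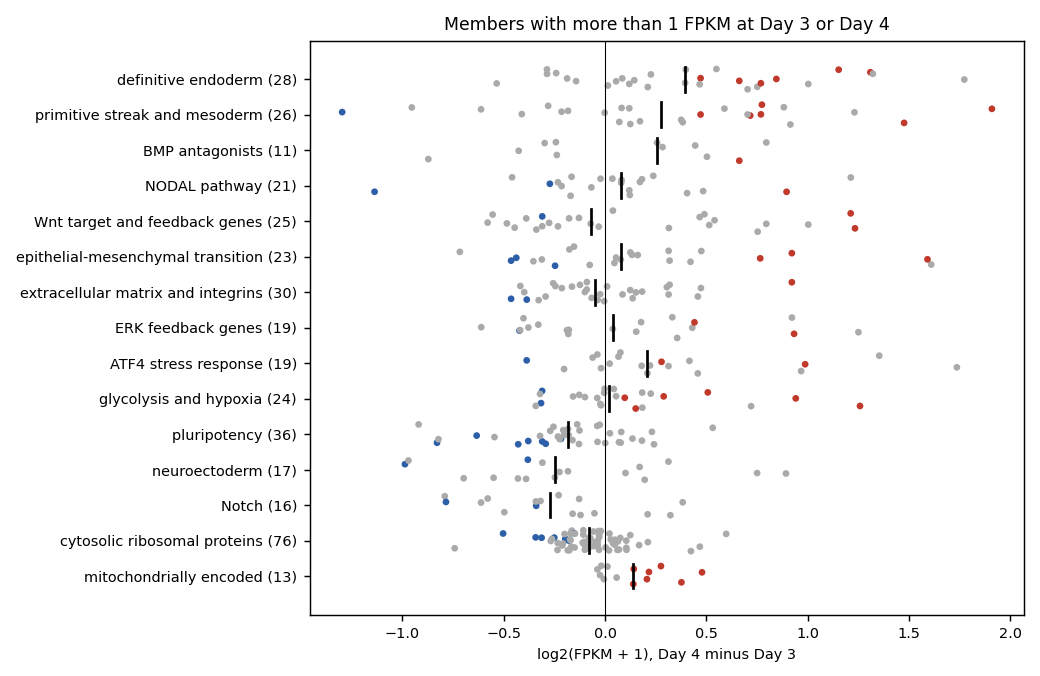
Difference in log2(FPKM + 1), Day 4 minus Day 3, of the members of 15 gene lists with more than 1 FPKM on either day (number in parentheses); red and blue points had interval calls upward and downward, and black bars are medians. The definitive endoderm list lies mostly to the right of 0 (median 0.40) and the Notch and pluripotency lists mostly to the left (medians -0.27 and -0.18).

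Marker lists of other cell types had few calls. Among all genes the interval call was met by 1.23% upward and 2.05% downward. Of 18 genes of visceral endoderm and liver, 7 were listed at 0 on both days, ALB and TTR among them, and AFP was at 0.127 and 0.240 FPKM. APOA2 was higher by the fold call (1.46 to 6.20 FPKM) with an interval of the ratio from 0.0696 to 258. In all, 6 members exceeded 1 FPKM on either day, and APOE (218 and 217 FPKM) and FOXA3 (12.4 and 8.27) had the highest levels without a call. Of 25 trophoblast and amnion genes, 9 were listed at 0 on both days, 11 exceeded 1 FPKM and TBX3 alone had a call. The keratins KRT8 (525 and 430 FPKM) and KRT18 (186 and 215), which simple epithelia share and whose loci overlap, had the highest levels of that list. Of 18 blood and vessel genes, 4 were listed at 0 on both days, 11 exceeded 1 FPKM, FLI1 stood at 5.53 and 9.22 FPKM without a call, and SOX17, which the list shares with endoderm, alone had a call. Of 38 HOX genes, 24 were listed at 0 on both days, none exceeded 4 FPKM and none had a call. Of 21 genes of H3K27 methylation and the KDM6 family, BMI1, EZH2 (30.8 to 41.5 FPKM) and KDM6B rose, and JARID2, a cofactor of the complex with EZH2, fell from 75.3 to 57.2 FPKM.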

How the data were processed

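RNA-seq values of 7 samples, 1 library each, were used. The authors prepared poly(A) RNA libraries with a directional kit, sequenced them as 150-base single-end reads on a MiSeq, mapped them to hg19 with TopHat2 (2.0.13) and deposited FPKM values per gene with the 95% bounds from Cufflinks (2.1.1). Read counts and the strand setting are not given in the sources used here. FPKM of Day 4 and Day 3 were compared without pseudocount for the fold call; log2 differences used a pseudocount of 1. Ratio intervals combined both Cufflinks intervals on the log scale. Depth, floors (3 reads), GC content and length used the longest GENCODE release 44 transcript on GRCh37, after subtracting 200 bases from the length for read values. A name with several entries was represented by the entry with the highest mean FPKM.

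The members and 30 gene lists were chosen with earlier results of these data known. Named genes were KDM6B and the 4 markers, up to 6 called and 4 highly expressed members of each list, the 10 largest rises and falls with both calls and the 8 largest of each class of genes moved by Day 2, without small-RNA, Y-linked, read-through and clone-based names and loci under 300 bases. Members of classes counted in full, and CSRP1, CYP26A1, GAL, GPC4, LHX1, NANOG, HSPA5, AFP, ALB and TTR, were named outside this rule after their values were seen, as were the genes so marked in the text. Python 3.11.15 with numpy 2.4.6, pandas 2.3.3 and matplotlib 3.10.9 was used, and calls were tested on simulated data. Some results are not reported here. Alternatives changed the cutoffs, pseudocounts, scale, reference and rows used.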

Additional observations from a re-analysis of the deposited data

How the results depend on the processing

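The counts of genes past the fold call depended on its cutoffs. With a minimum of 1 FPKM, 570 genes were higher and 793 lower at Day 4; with a minimum of 10 FPKM, 76 and 103; with a fold of 1.5, 584 and 968; when the Cufflinks intervals also had to be apart, 46 and 60; and with a pseudocount of 1 in the ratio, 188 genes were lower. By the interval call, requiring instead that the 95% interval of the ratio exclude 1 gave 565 higher and 807 lower genes. Genes risen by Day 2 and lower at Day 4 numbered 19 against the untreated mutant line, 23 by the fold call and 7 when moved by Day 1. Genes fallen by Day 2 and lower again numbered 2 against the mutant line, 41 by the fold call, 5 with a minimum of 10 FPKM and 4 when moved by Day 1, and those fallen and higher numbered 4 against the mutant line and 21 by the fold call. The other alternatives for these counts, including the scales, GC content and short loci, stayed within 1.5 times the main count. The cause of these shifts was not tested beyond the construction of each alternative. None of the 110 named genes with a call changed sign under the pseudocounts or the scale tried. A pseudocount cannot change a sign, and multiplying Day 4 by 1.03 can do so only for ratios just under 1. This outcome therefore does not measure how firm the calls are. The median changed sign for 3 of 30 lists (BMP response genes, Wnt receptors and carriers, glycolysis and hypoxia). Lists with a median of exactly 0 could not be counted in this way. Some of them moved away from 0 under an alternative, as neuroectoderm to -0.31, trophoblast and amnion to -0.39 and cystatins to 0.44. No paired analysis was possible because each condition had 1 library.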

Other observations

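Of 37 cell cycle genes, MKI67, a marker of proliferating cells, fell from 36.3 to 30.4 FPKM by the interval call (ratio 0.836, 0.756 to 0.923), and PCNA (177 and 158 FPKM) and CCNB1 (178 and 159) were level. None of the 76 cytosolic ribosomal protein genes met the fold call, 8 were lower and 0 higher by the interval call, beside 2.05% lower over all genes (2.64% with more than 4 FPKM). The median difference was -0.08, beside -0.05 of all genes above 1 FPKM. RPL13A had the largest of the named falls (304 to 214 FPKM). Of the 13 mitochondrially encoded genes, 7 were higher and 0 lower by the interval call, beside 1.23% higher over all genes (1.65% with more than 4 FPKM), with a median difference of 0.14. For all 7 the FPKM lay outside the deposited Cufflinks interval on both days, as with MT-ND1 at 2236 FPKM on Day 3 against 1725 to 1857, so these calls rest on intervals that do not hold the values. HMGCS1, an enzyme of cholesterol synthesis, rose from 152 to 180 FPKM by the interval call. Of 19 p53 targets, TNFRSF10B, a death receptor, rose from 17.8 to 25.0 FPKM. Of 11 cystatins, 7 were listed at 0 on both days, and CST1 (45.6 and 62.5 FPKM) and CST3 (45.5 and 62.1) met neither call.

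Some genes were first listed above 1 FPKM after Day 2. A search for genes at no more than 1 FPKM on Days 0 to 2 and in the untreated mutant line that exceeded 4 FPKM on Day 4, made after the values were seen, found ANKRD1, DIO3, NPPB, FLRT3, TWIST1, EVX1, VAX1, PRDM1, ERICH2 and MSX1. NPPB, the natriuretic peptide BNP, was listed at 7.69 FPKM on Day 3 and 18.4 on Day 4, and DIO3, which inactivates thyroid hormone, at 14.3 and 24.5 FPKM; the Cufflinks intervals overlapped for both genes and were too wide for DIO3 to order the days.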
